A study of Mus musculus with 16 samples.

Results

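The genes described are 9 constitutive components of the cardiac sarcomere: the ventricular light chains *Myl2* and *Myl3*, cardiac myosin binding protein C (*Mybpc3*), titin (*Ttn*), cardiac troponin T (*Tnnt2*), cardiac troponin C (*Tnnc1*), alpha-tropomyosin (*Tpm1*) and the M-band proteins *Myom1* and *Myom2*. They were taken as a named list, and each symbol was matched to 1 of the 51912 Ensembl gene identifiers of the deposited count table. All 9 were among the 20159 genes with enough counts to be tested. RNA was sequenced from the ventricles of neonatal mice, above and below the site of ligation, in 4 groups of 4 libraries. WT and Lrrc10-/- (KO) mice had either sham surgery (SH) or myocardial infarction (MI), with groups named by both: WT SH and WT MI for one genotype, KO SH and KO MI for the other. All mice were on the C57BL/6 background, the deletion was in the whole body, surgery was on postnatal day 1 and tissue was taken 7 days later. MI was a ligation of the left anterior descending artery, and the sham operation opened the chest without exposing the heart or tying the artery. *Lrrc10* encodes a leucine-rich repeat protein found in cardiomyocytes.

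In the sarcomere, myosin thick filaments pull on actin thin filaments. The light chains and *Mybpc3* sit on the myosin heads and the thick filament, and troponin with tropomyosin makes the thin filament respond to calcium. Titin spans from the Z-disc to the M-band as a molecular spring and scaffold, and the myomesins cross-link thick filaments and titin in the M-band. In the mouse heart these genes are expressed from before birth, and several related genes, such as *Myh7* and *Tnni1*, give way to adult paralogs around birth.

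The libraries held between 33783874 and 57470159 counts. The targeted gene *Lrrc10* had between 1075 and 1850 counts in the 8 WT libraries and 0 counts in all 8 KO libraries, where 0 allows at most 0.0810 CPM when 3 counts are taken as the limit. Levels are given in CPM, counts divided by the library size and put on a common scale, with library sizes adjusted by the trimmed mean of M-values (TMM). The groups are described as balanced by sex, but *Xist*, which is transcribed from the inactive X, was above 100 CPM in 2 of 4 libraries in each of KO SH, WT MI and KO MI and in 0 of 4 WT SH libraries. The groups were thus uneven in this respect, and results without the libraries high in *Xist* are given where they bear on a call. WT SH replicate 1 and KO MI replicates 2 and 7 stood apart in several of the genes below. The edgeR p-values rest on the spread between libraries within groups. That spread was estimated over all 4 groups in 1 fit and shared in part across genes, so libraries outside a comparison also affect it. Without KO MI replicates 2 and 7, the calls among all tested genes in KO SH against WT SH went from 2486 to 4101.

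The ventricular label was compared with marker genes. *Myl2*, which marks ventricular cardiomyocytes, was at 1352 CPM or more in every library. The atrial light chain *Myl7* was at or below 10.1 CPM, and *Sln*, another atrial gene, at or below 2.95 CPM. Of the other atrial genes listed, *Bmp10* was at or below 0.508 CPM, *Myl4* reached 66.3 CPM and *Nppa* reached 2395.5 CPM. Their highest values were in KO MI. Together the 9 genes took between 5.28% and 6.16% of all counts. *Ttn* alone had a mean of 44527 CPM, and its lowest library held 1553646 counts. The lowest count of any of the 9 genes in any library was 23822, for *Tnnc1*, so counting error was small beside the spread between libraries. Per kilobase of the canonical transcript, the mean levels were highest for *Myl3* (3348 CPM per kb) and *Myl2* (1869), followed by *Tpm1* (1114), *Tnnc1* (1036) and *Tnnt2* (986), and then by *Ttn* (414), *Mybpc3* (259), *Myom1* (181) and *Myom2* (156). Over all annotated exons of a gene the order changed, since the merged exons of *Tnnt2* (8923 bp against 1776 bp) and *Myl2* (3791 bp against 828 bp) are much longer than the canonical transcript. On that scale *Myl3* (1036 CPM per kb) remained the highest, *Tnnc1* (676) came next and *Myom2* (49.6) remained the lowest. *Ttn*, *Tnnt2* and *Tpm1* each produce several isoforms by splicing, and counts per gene do not separate them.

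In GRCm39, *Ttn* (ENSMUSG00000051747) lies on the minus strand of chromosome 2 from 76534136 to 76812891, with 347 exons in its canonical transcript. *Mybpc3* (ENSMUSG00000002100, 34 exons) lies on the same chromosome, on the plus strand, from 90948489 to 90966861. Promoter windows were present for 8 of the 9 genes in a RefSeq table of build GRCm38.p6, 10 windows in all, and the 250 bases before each start were found exactly once in GRCm39. The windows of *Ttn* and *Mybpc3* are shown because both genes were lower in KO SH and neither window touches an annotated exon. Capitals mark a MEF2 box, a motif of the MEF2 factors of muscle. It lies from base -166 to -157 of *Ttn* and from -90 to -81 of *Mybpc3*, counted back from the start. The first window is chr2:76812892-76813141 (minus strand) and the second is chr2:90948239-90948488 (plus strand).
Ttn: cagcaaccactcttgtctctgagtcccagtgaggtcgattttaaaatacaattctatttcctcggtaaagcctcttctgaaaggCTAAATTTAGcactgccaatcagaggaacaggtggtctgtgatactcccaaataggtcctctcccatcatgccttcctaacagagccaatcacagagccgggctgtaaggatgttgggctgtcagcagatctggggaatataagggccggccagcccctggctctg
Mybpc3: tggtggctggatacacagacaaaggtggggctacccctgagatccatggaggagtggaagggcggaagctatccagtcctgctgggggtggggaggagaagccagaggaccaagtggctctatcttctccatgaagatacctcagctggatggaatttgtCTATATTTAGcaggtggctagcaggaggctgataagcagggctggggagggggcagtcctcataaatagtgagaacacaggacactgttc

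A MEF2 box was found on either strand in windows of 2 of the 8 genes, and in 2.92% of all 32851 windows of the table. The M-CAT motif (CATTCC), which binds TEAD factors, was in windows of 4 genes (*Tnnt2*, *Tpm1*, *Myl3* and *Tnnc1*) and in 12.6% of all windows. The CArG box, bound by serum response factor, was in those of *Myl3* and *Myom1* and in 1.47% of all. GATA boxes (AGATAA or TGATAA) were in windows of 4 genes and in 16.6% of all, a TATA box (TATAAA) in 1 gene and 12.4% of all, and an E-box (CANNTG) in all 8 genes and 66.2% of all windows. The E-box was the motif of highest frequency in both sets. A gene counts with a match in any of its windows, and *Tnnt2* and *Myl2* have 2 windows each, whereas the shares are per window. The windows follow the RefSeq starts, and those of *Ttn* and *Mybpc3* alone end at the gene start annotated in GENCODE. Both windows of *Myl2*, which hold the TATA box and 1 of the GATA matches, end 8061 and 7596 bases before that start. Those of *Tnnt2*, *Tpm1*, *Myl3* and *Myom1* lie wholly past it. The matches of *Myl2* and of these genes therefore do not describe the annotated start. The window of *Tnnc1* ends 37 bases past the annotated start, and its matches lie before that start. The matches describe the letters of the windows and do not show binding.

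Of the 4 comparisons, that of the sham groups had the most calls among the 9 genes. In KO SH, 5 of the 9 were lower than in WT SH: *Myom1*, *Tnnc1*, *Mybpc3*, *Ttn* and *Myl3*, by between 0.19 and 0.44 on the log2 scale. The threshold of this count was an adjusted p under 0.1 (edgeR quasi-likelihood F-test, Benjamini-Hochberg over all tested genes), which 12.3% of tested genes passed in this comparison. None of the 9 reached the absolute log2 fold change of 0.5 that defines a differentially expressed gene (DEG), as 5.01% of tested genes did. The median log2 fold change of the 9 genes was -0.24, against 0.01 for all tested genes, and 8 of 9 values were negative. The libraries of the 2 groups did not overlap for *Ttn*, *Tnnc1* and *Myom1*, all lower in KO SH, where 18.5% of tested genes did not overlap. In bulk tissue, fewer cardiomyocytes and less of a transcript per cardiomyocyte cannot be told apart. The summed CPM of 10 cardiomyocyte genes outside the sarcomere ranged from 13384 to 13894 in KO SH and from 13403 to 15940 in WT SH. Its largest parts were *Ryr2* and *Atp2a2*, with means of 4497 and 4702 CPM in WT SH. With the libraries scaled to the sum of the 10 genes, the median log2 fold change of all tested genes was 0.11. *Myom1* was then the 1 gene of the 9 that remained called, where 8.05% of tested genes were called. *Ttn*, *Mybpc3*, *Tnnc1* and *Myl3* had log2 fold changes of -0.14, -0.17, -0.23 and -0.08 under that scaling. Without the libraries high in *Xist*, which leaves 2 of the KO SH libraries, *Myom1* (-0.42) was again the 1 gene called, where 3.2% of tested genes were called, and the other 4 had values of -0.24, -0.23, -0.31 and -0.17.

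After MI no difference between the genotypes was called. Of the 9 genes, 0 passed the same edgeR threshold in KO MI against WT MI, 0 had an unadjusted p under 0.05 and DESeq2 called 0. Among tested genes, 3.07% passed it and 1.73% were DEGs. The 9 log2 fold changes lay between -0.05 (*Myl3*) and 0.20 (*Tnnt2*) with a median of 0.04, and the libraries of the groups overlapped for all 9, where 6.47% of tested genes did not overlap. The intervals were narrowest for *Ttn*, with a 95% interval of the percent change from -9.82% to 5.95%. They were widest for *Tnnt2*, from -4.81% to 39.1%.

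In WT mice, 2 genes were lower after MI than after sham, *Ttn* and *Tpm1*, where 5.31% of tested genes passed the threshold and 2.78% were DEGs. The median of the 9 log2 fold changes was -0.19, and 8 of 9 were negative. The summed CPM of the cardiomyocyte genes outside the sarcomere was between 12001 and 12529 in WT MI, below all WT SH libraries. Of these 10 genes, 3 were called lower and 0 higher, where 2.21% and 3.11% of tested genes were. *Ryr2* and *Atp2a2* fell from means of 4497 and 4702 CPM in WT SH to 3560 and 3845 CPM in WT MI. The means of *Slc8a1* (433 and 495 CPM), *Nkx2-5* (10.8 and 11.1 CPM) and *Gata4* (57.9 and 58.8 CPM) were not lower. The sum thus does not describe each of the 10 genes. With the libraries scaled to that sum, the median of the 9 genes was 0.08 against 0.26 for all tested genes, and 6 of the 9 values changed sign. Libraries did not overlap for *Ttn*, where 12.1% of tested genes did not overlap. In KO mice, *Myl2* and *Tnnc1* were higher and *Myom2* was lower after MI, where 17.5% of tested genes passed the threshold and 7.42% were DEGs. Libraries of KO MI and KO SH did not overlap for *Myl2*, *Tnnc1* and *Myom1*, all higher in KO MI, where 14.9% of tested genes did not overlap. None of the 9 was a DEG in either comparison. Each group enters 2 of these comparisons, so they are not independent of each other.

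The difference between the KO effect after MI and the KO effect after sham was positive for 8 of the 9 genes, with a median of 0.27. None passed the threshold in the edgeR test with Benjamini-Hochberg adjustment, which 0.0248% of tested genes passed, all of them with an absolute log2 difference of at least 0.5 (0.0248%). DESeq2 called 3 of the 9, *Ttn*, *Tnnc1* and *Myom1*, where it called 2.83% of tested genes. The largest differences were those of *Tnnc1* (0.46, standard error 0.14, adjusted p = 0.203, edgeR) and *Myom1* (0.42, standard error 0.12, adjusted p = 0.188, edgeR). *Myom2* had the 1 negative value, -0.13 (standard error 0.13).

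**Figure D1:**
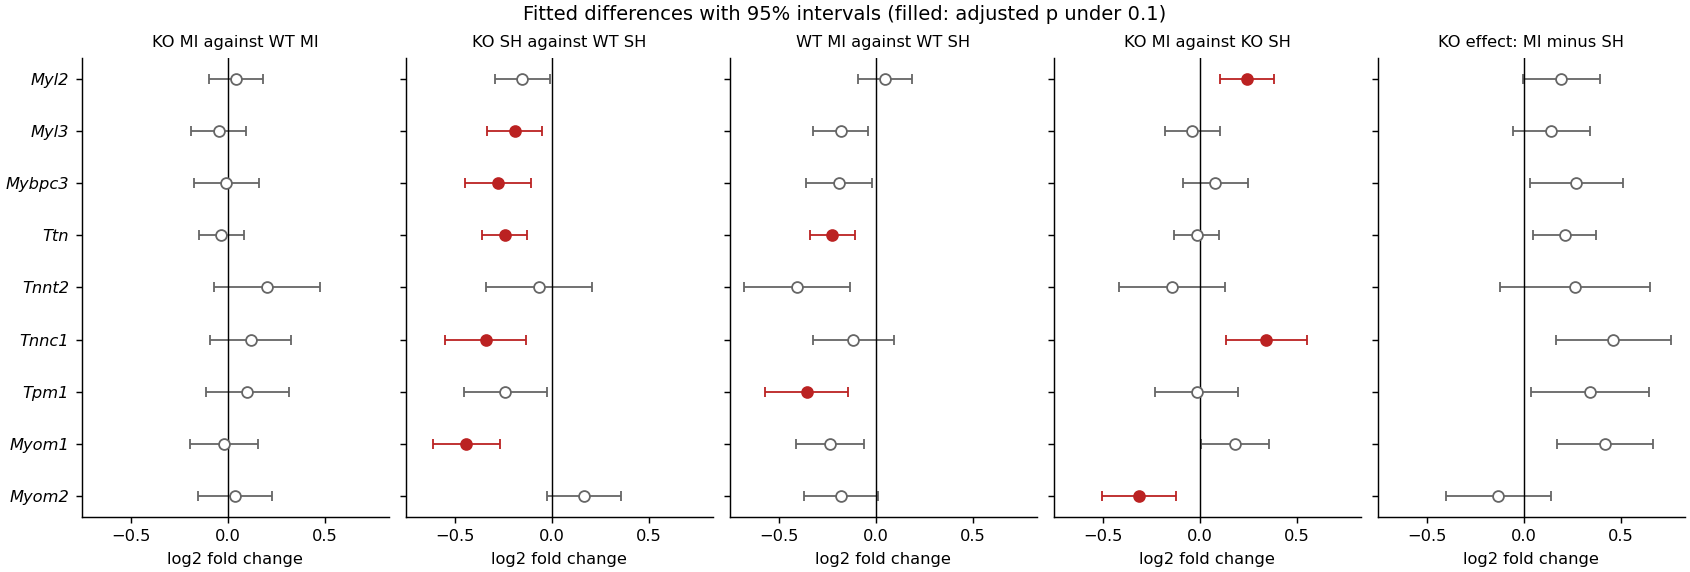
Fitted log2 fold changes of the 9 genes (x axis) in the 4 comparisons and in the difference of the KO effects, with 95% intervals from the edgeR fit and filled red points for an adjusted p under 0.1. Filled points stand to the left of 0 for 5 genes in KO SH against WT SH, and no point is filled in KO MI against WT MI.

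*Myl2* (ENSMUSG00000013936, plus strand of chromosome 5 from 122238848 to 122251545) encodes the regulatory light chain of ventricular myosin. In replicate order it was at 1727, 1468, 1557 and 1438 CPM in WT SH and at 1354, 1467, 1399 and 1352 CPM in KO SH. After MI it was at 1551, 1644, 1576 and 1630.4 CPM in WT and at 1723, 1798, 1569 and 1506 CPM in KO. The KO SH libraries were the lowest group, and each KO MI library was above each KO SH library. *Myl2* rose in KO MI against KO SH by 0.24 on the log2 scale (standard error 0.07, adjusted p = 0.0250, edgeR with Benjamini-Hochberg adjustment), an 18.4% higher level. This call held in all 8 fits without 1 library and was lost without the libraries high in *Xist*, where the value was 0.16. In KO SH against WT SH its log2 fold change was -0.15 (adjusted p = 0.181, edgeR) and the groups overlapped.

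*Myl3* (ENSMUSG00000059741, plus strand of chromosome 9 from 110570929 to 110599396) encodes the essential light chain of ventricular myosin. It was at 4026, 3425, 3417 and 3108 CPM in WT SH, at 2889.6, 3182, 3102 and 3074 CPM in KO SH, at 3114, 2899.8, 3136 and 3172 CPM in WT MI, and at 2982, 3087, 2946 and 2908 CPM in KO MI. The upper 3 WT SH libraries stood above every other library. *Myl3* fell in KO SH against WT SH by 0.19 on the log2 scale (standard error 0.07, adjusted p = 0.0940, edgeR with Benjamini-Hochberg adjustment). That call was close to the threshold. It held in 1 of the 8 fits without 1 library, that without WT SH replicate 4 (-0.24), and the value was nearest to 0 without WT SH replicate 1 (-0.12). In WT MI against WT SH the log2 fold change was -0.18 (adjusted p = 0.168, edgeR).

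*Mybpc3* encodes cardiac myosin binding protein C, which regulates how myosin heads leave the thick filament. It was at 1382, 1170.1, 1231 and 1024 CPM in WT SH and at 955, 967, 1032 and 1009.7 CPM in KO SH. After MI it was at 1087, 1018, 1096 and 1014 CPM in WT and at 1077, 1170.1, 1014 and 931 CPM in KO. WT SH replicate 4 lay inside the KO SH range, and the other WT SH libraries lay above it. *Mybpc3* fell in KO SH by 0.28 on the log2 scale (standard error 0.08, adjusted p = 0.0428, edgeR with Benjamini-Hochberg adjustment). Its value was -0.20 without WT SH replicate 1, -0.26 without KO SH replicate 1 and -0.27 without KO SH replicate 2, and the call was lost in those 3 of 8 fits. After MI the genotypes differed by -0.01 (95% interval from -0.18 to 0.16).

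*Ttn* was at 51455, 49537, 51278 and 49181 CPM in WT SH and at 43460.0, 41958, 42792 and 41994 CPM in KO SH. After MI it was at 41874, 42606, 43436 and 44413 CPM in WT and at 43228, 42351, 39379 and 43489 CPM in KO. All 4 WT SH libraries were above all 12 others, and the other 3 groups overlapped each other. The spread was small, with a coefficient of variation between 1.69% and 4.48% in the 4 groups. *Ttn* fell in KO SH against WT SH by 0.24 on the log2 scale (standard error 0.06, adjusted p = 0.0135, edgeR with Benjamini-Hochberg adjustment), a change of -15.5%. It fell in WT MI against WT SH by 0.23 (standard error 0.06, adjusted p = 0.0359, same test), a change of -14.5%. The first call held in all 8 fits without 1 library, and the second was lost without WT SH replicate 3 (-0.22) and without WT MI replicate 1 (-0.21). An exact permutation test (two-sided) gave p = 0.0286 for both, the smallest value that 4 libraries against 4 allow. KO MI and KO SH differed by -0.01 (95% interval from -0.13 to 0.10). With libraries scaled to the cardiomyocyte genes the value for WT MI against WT SH was 0.04, the opposite sign, and all genes shifted by 0.26. That call was also lost with the library total (-0.09) and without the libraries high in *Xist* (-0.23).

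**Figure D2:**
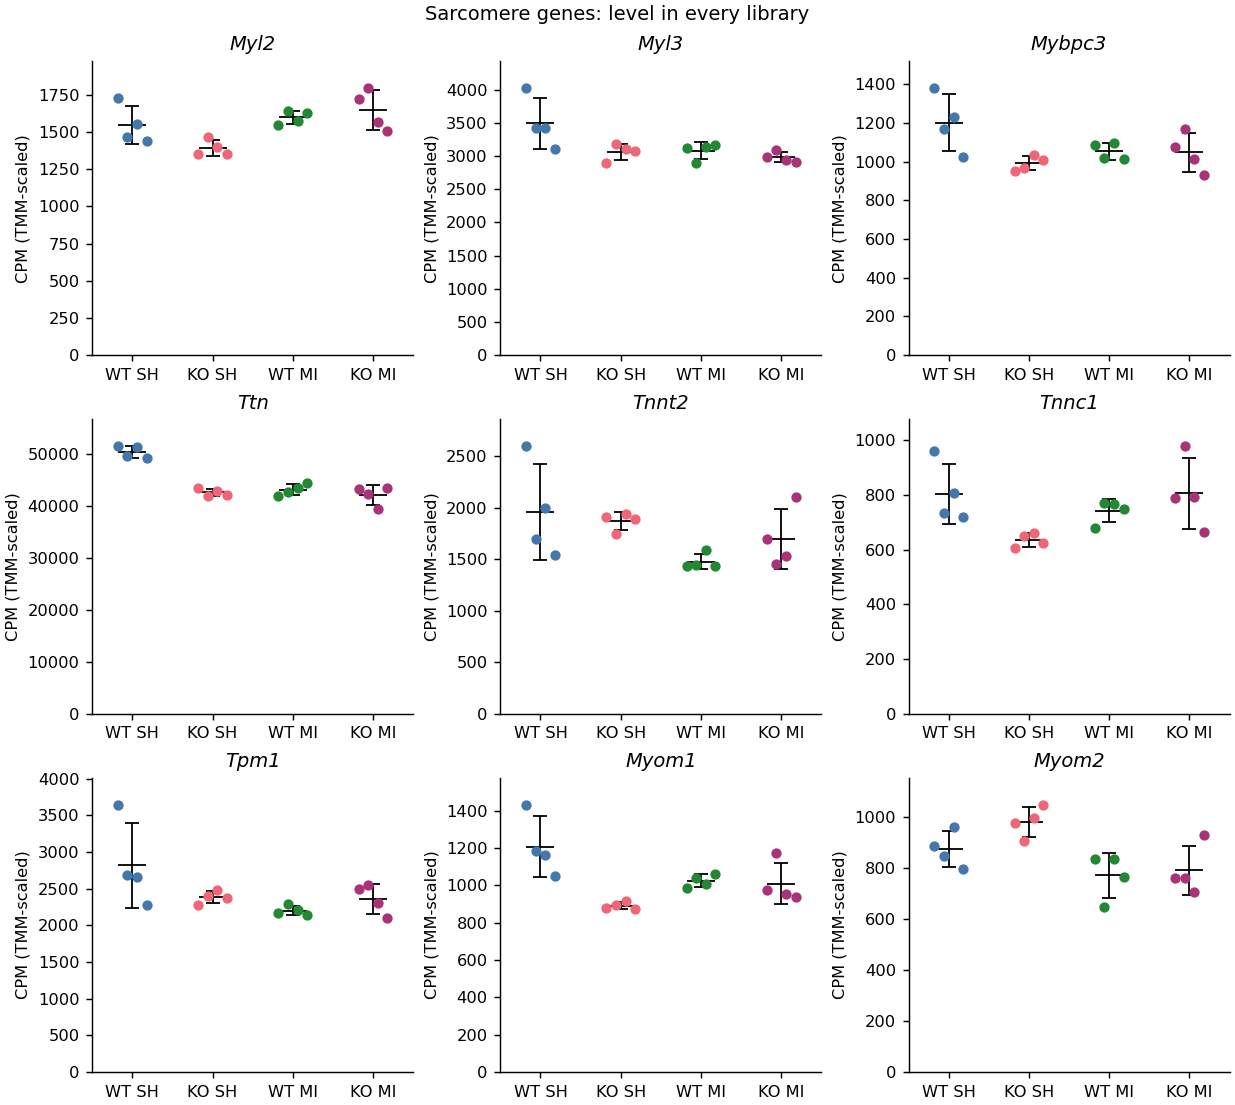
Level of each gene in every library, in CPM of the TMM-scaled library (y axis from 0), with the mean (bar) and SD (whiskers) of the 4 libraries of a group, and points in replicate order. The 4 WT SH points of *Ttn* lie above all others, WT SH replicate 1 stands high for *Tnnt2* and *Tpm1*, and the KO SH points of *Myom1* lie below those of every other group.

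*Tnnt2* (ENSMUSG00000026414, plus strand of chromosome 1 from 135763738 to 135780315) encodes cardiac troponin T, which anchors the troponin complex to tropomyosin. It was at 2599, 1694, 1998 and 1541 CPM in WT SH, at 1915, 1748, 1942 and 1890.2 CPM in KO SH, at 1433, 1448, 1586 and 1436 CPM in WT MI, and at 1702, 1450.2, 1532 and 2109.9 CPM in KO MI. WT SH replicate 1 and KO MI replicate 7 stood above the rest of their groups, and *Tnnt2* had the largest biological coefficient of variation of the 9 genes, 13.5%. It passed the threshold in 0 of the 5 tests. Its value in WT MI against WT SH was -0.41 on the log2 scale (standard error 0.13, adjusted p = 0.103, edgeR with Benjamini-Hochberg adjustment), just outside, and -0.24 without WT SH replicate 1. The call was made without WT SH replicate 4 (-0.51). In KO SH against WT SH the value of -0.06 became 0.10 without WT SH replicate 1.

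*Tnnc1* (ENSMUSG00000091898, plus strand of chromosome 14 from 30930232 to 30933708) encodes the calcium-binding subunit of troponin in heart and slow muscle. It was at 959, 732, 806 and 719.7 CPM in WT SH and at 605, 648, 660.3 and 625 CPM in KO SH. After MI it was at 680.5, 771, 768 and 748 CPM in WT and at 789, 978, 791 and 664 CPM in KO. KO SH libraries were below all other 12. *Tnnc1* fell in KO SH against WT SH by 0.34 on the log2 scale (standard error 0.10, adjusted p = 0.0453, edgeR with Benjamini-Hochberg adjustment), a change of -21.1%. It rose in KO MI against KO SH by 0.34 (standard error 0.10, adjusted p = 0.0338, same test). The first call was lost without WT SH replicate 1 (-0.25), KO SH replicate 1 (-0.32) or KO SH replicate 4 (-0.33). The second was lost without KO MI replicate 2 (0.24), the library with the highest *Tnnc1*, and without the libraries high in *Xist* (0.18). Exact permutation p-values were 0.0286 for both comparisons, the smallest possible. *Nisch*, a gene on the opposite strand that overlaps *Tnnc1*, had between 8779 and 14451 counts in the same libraries. The libraries are strand-specific, but whether the counting used strand is not given in the sources used here, so reads of the 2 genes may not have been told apart.

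*Tpm1* (ENSMUSG00000032366, minus strand of chromosome 9 from 66929870 to 66956953) encodes alpha-tropomyosin, which lies along actin and blocks or opens the myosin sites. It was at 3646, 2685, 2654 and 2279.5 CPM in WT SH, at 2283, 2401, 2485 and 2376 CPM in KO SH, at 2163, 2286, 2203 and 2147 CPM in WT MI, and at 2499, 2545, 2299 and 2098 CPM in KO MI. WT SH replicate 1 was far above all other libraries, and WT SH replicate 4 lay within the WT MI range. *Tpm1* fell in WT MI against WT SH by 0.36 on the log2 scale (standard error 0.10, adjusted p = 0.0687, edgeR with Benjamini-Hochberg adjustment). This call was lost in 7 of 8 fits without 1 library, in which the value ranged from -0.38 to -0.21, with -0.21 without WT SH replicate 1. It held without WT SH replicate 4, at -0.45. It was also lost with the library total in place of TMM (-0.22), with scaling to the cardiomyocyte genes (-0.08) and without the libraries high in *Xist* (-0.36). In KO SH against WT SH its log2 fold change was -0.24 (adjusted p = 0.169, edgeR), and that was called without WT SH replicate 4 (-0.33).

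*Myom1* (ENSMUSG00000024049, plus strand of chromosome 17 from 71309628 to 71434802) encodes myomesin 1, the principal cross-linker of the M-band. It was at 1433, 1184, 1164 and 1049 CPM in WT SH and at 880.0, 893, 916 and 872 CPM in KO SH. After MI it was at 986, 1042, 1007 and 1063 CPM in WT and at 976, 1175, 951 and 936 CPM in KO. Each KO SH library was below every library of the other 3 groups. *Myom1* fell in KO SH against WT SH by 0.44 on the log2 scale (standard error 0.08, adjusted p = 0.00429, edgeR with Benjamini-Hochberg adjustment), a change of -26.3% with a 95% interval from -34.7% to -16.8%. It was the gene of the 9 with the largest fall, and the call held in all 8 fits without 1 library and under 10 other settings of the fit, from -0.50 to -0.33. In KO MI against KO SH the log2 fold change was 0.18 (adjusted p = 0.172, edgeR), although the groups did not overlap (exact permutation p = 0.0286), and this was called without KO MI replicate 7 (0.22). *Myl12a* overlaps *Myom1* on the opposite strand, with between 2328 and 4903 counts, and the same limit holds.

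*Myom2* (ENSMUSG00000031461, plus strand of chromosome 8 from 15107272 to 15183541) encodes myomesin 2, an M-band protein of heart and fast muscle. It was at 885, 847, 961 and 795 CPM in WT SH and at 974, 903, 994 and 1047 CPM in KO SH. After MI it was at 834, 647, 832 and 764 CPM in WT and at 761, 760.3, 706 and 928 CPM in KO. KO SH held the highest library of all 16, and WT MI the lowest. *Myom2* fell in KO MI against KO SH by 0.31 on the log2 scale (standard error 0.09, adjusted p = 0.0339, edgeR with Benjamini-Hochberg adjustment). The call was lost without KO SH replicate 4 (-0.28) and without KO MI replicate 3 (-0.26), and KO MI replicate 7 lay within the KO SH range. It was also lost with the library total (-0.16), with scaling to the cardiomyocyte genes (-0.01) and without the libraries high in *Xist* (-0.32). In KO SH against WT SH its log2 fold change was 0.17 (adjusted p = 0.285, edgeR), the 1 positive value of the 9 genes in that comparison.

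Some libraries stood at 1 end of their group for most of the genes. WT SH replicate 1, which also had the highest total count, was the highest WT SH library for 8 of the 9 genes, all but *Myom2*, and the highest of all 16 libraries for 6. WT SH replicate 4 was the lowest WT SH library for all 9. The summed cardiomyocyte genes outside the sarcomere were also highest in WT SH replicate 1 (15940 CPM) and lowest in WT SH replicate 4 (13403 CPM). In KO MI, replicate 2 was the highest and replicate 7 the lowest library for the same 6 genes (*Mybpc3*, *Myl2*, *Myl3*, *Tnnc1*, *Tpm1* and *Myom1*), while replicate 7 was the highest for *Ttn*, *Tnnt2* and *Myom2*. The cardiomyocyte sum in KO MI was 12650, 9607, 11639 and 10839 CPM in replicates 1, 2, 3 and 7. Between libraries of a group the median coefficient of variation of the 9 genes was 12.3% in WT SH, 3.87% in KO SH, 3.98% in WT MI and 9.66% in KO MI. Over all tested genes it was 12.8%, 9.61%, 10.6% and 15.7%. The tagwise biological coefficient of variation had a median of 9.28% in the 9 genes and 12.6% in all tested genes.

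Sums of the skeletal muscle and atrial marker lists varied between the KO MI libraries. The sum of 12 fast skeletal muscle genes was 2.64, 76.4, 7.48 and 122 CPM in KO MI replicates 1, 2, 3 and 7, and at most 13.6 CPM in the other groups. Most of the 9 genes are also expressed in skeletal muscle. Of the 12 listed genes 7 were tested, and 6 of these were called higher in KO MI than in KO SH, where 10.2% of tested genes were. Against WT MI, 4 were called higher in KO MI, where 1.03% of tested genes were, and 0 were called lower in either comparison. Of the same list, *Myod1* was at 0.0394 CPM or less in every library, and *Pvalb* was at 0 in all MI libraries. The atrial list of 5 genes summed to 341, 2428, 857 and 159 CPM in KO MI and to at most 223 CPM elsewhere, of which *Nppa* made up 2395.5 CPM in the highest library. The highest values of the atrial light chains in KO MI and WT SH were 9.62 and 10.1 CPM for *Myl7* and 66.3 and 60.8 CPM for *Myl4*. Their means in these groups were 3.87 and 3.10 CPM for *Myl7* and 33.35 and 21.4 CPM for *Myl4*. Of the 5 atrial genes 4 were tested, and 2 were called higher in KO MI than in KO SH, where 10.2% of tested genes were. Against WT MI, 1 was called higher in KO MI, where 1.03% of tested genes were, and 0 were called lower in either comparison. Whether the *Nppa* level reflects atrial tissue was not tested. Without KO MI replicates 2 and 7, *Myl2* (0.24), *Tnnc1* (0.32) and *Myom2* (-0.42) kept their calls in KO MI against KO SH, where 16% of tested genes were called. The 6 fibroblast genes summed to between 1675 and 1993 CPM in the sham groups and between 2013 and 2582 CPM in the MI groups. Sums of the endothelial list were 797 to 824 CPM in WT SH and 732 to 768 CPM in KO SH. Those of the macrophage list were 16.1 to 19.1 and 13.3 to 16.6 CPM, and those of the erythroid list 522 to 726 and 414 to 494 CPM. The part of these lists in the results was not tested.

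Ratios between genes of the same library do not depend on how libraries are scaled. Of 6 ratios in 4 comparisons, 24 tests in all, 6 reached the smallest p that an exact permutation test of 4 against 4 allows (0.0286, two-sided), and none passed after Benjamini-Hochberg adjustment (smallest adjusted p = 0.114, exact permutation test). The 6 therefore describe groups that did not overlap.

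The M-band ratio of *Myom2* to *Myom1* was 0.618, 0.715, 0.826 and 0.758 in WT SH and 1.11, 1.01, 1.08 and 1.20 in KO SH. It was 0.846, 0.621, 0.826 and 0.719 in WT MI and 0.780, 0.647, 0.742 and 0.992 in KO MI. KO SH was above every library of the other 3 groups. The log2 ratio was 0.60 higher in KO SH than in WT SH (standard error 0.10) and fell by 0.49 from KO SH to KO MI (standard error 0.14), with an exact permutation p of 0.0286 each (adjusted p = 0.114). It ranged from 0.52 to 0.66 and from -0.61 to -0.40 when 1 library was left out.

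The ratio of *Myl2* to *Myl3* was higher after MI in both genotypes. It was 0.429, 0.428, 0.456 and 0.463 in WT SH, 0.469, 0.461, 0.451 and 0.440 in KO SH, 0.498, 0.567, 0.503 and 0.514 in WT MI, and 0.578, 0.582, 0.533 and 0.518 in KO MI. Every MI library was above every sham library. The log2 ratio was 0.23 higher in WT MI than in WT SH (standard error 0.05) and 0.28 higher in KO MI than in KO SH (standard error 0.05), each with an exact permutation p of 0.0286 (adjusted p = 0.114). The genotypes differed by 0.04 after sham and by 0.09 after MI, with overlapping libraries.

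In the troponin complex the ratio of *Tnnc1* to *Tnnt2* rose from a geometric mean of 0.416 in WT SH to 0.502 in WT MI, a log2 difference of 0.27 (standard error 0.08) without overlap (exact permutation p = 0.0286, adjusted p = 0.114). In KO it was 0.339 after sham and 0.475 after MI, where KO MI replicate 7, at 0.315, lay below all KO SH libraries. The ratio of *Myom1* to *Ttn* was between 0.0202 and 0.0214 in KO SH and between 0.0215 and 0.0277 in KO MI, a log2 difference of 0.19 (standard error 0.08) without overlap (exact permutation p = 0.0286, adjusted p = 0.114). *Mybpc3* to *Ttn* and *Tpm1* to *Tnnt2* overlapped between groups in all 4 comparisons.

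**Figure D3:**
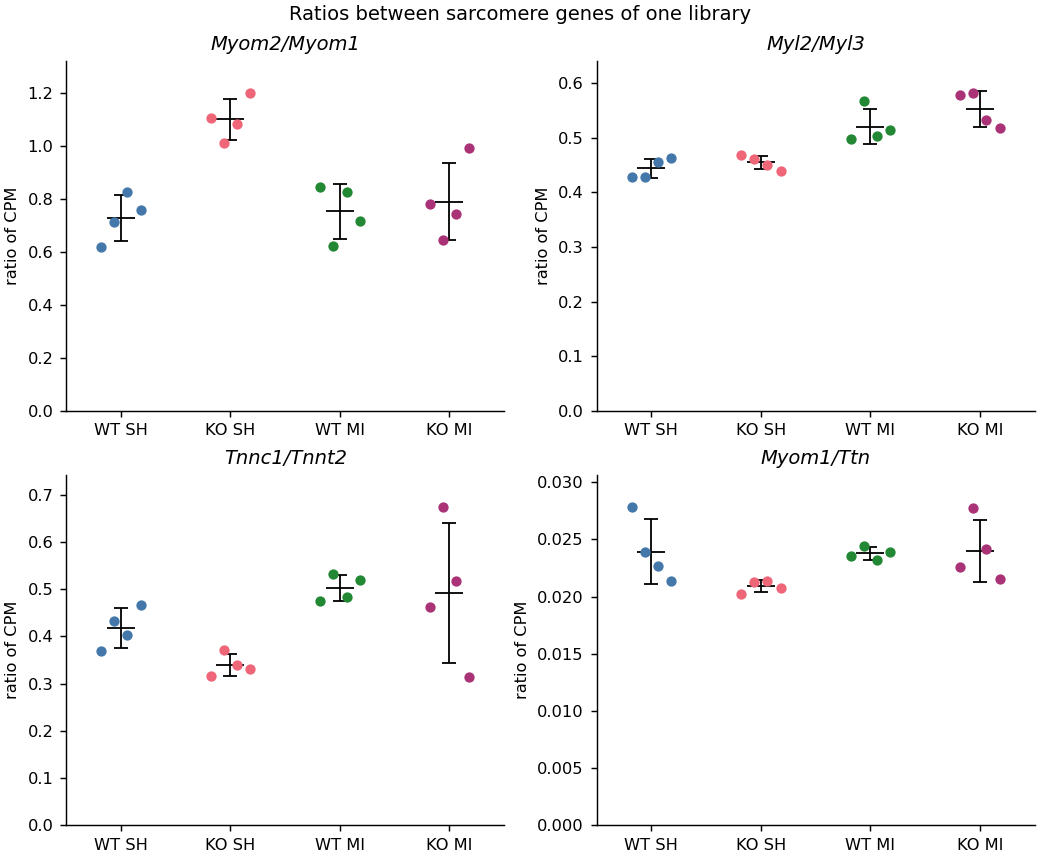
Ratios of CPM of 2 genes in the same library (y axis from 0) by group, with the mean (bar) and SD (whiskers) of 4 libraries and points in replicate order. The 4 KO SH points of *Myom2* to *Myom1* lie above 1 and above all other groups, and all MI points of *Myl2* to *Myl3* lie above all sham points.

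The scaling of the libraries moved the 9 genes together. The factors of the TMM scaling ranged from 0.905 to 0.979 in WT SH, from 0.957 to 0.976 in KO SH, from 1.01 to 1.04 in WT MI and from 0.997 to 1.11 in KO MI, so they differed by group. Under TMM the median log2 fold change of all tested genes was 0.0077 in KO MI against WT MI and 0.0053 in KO SH against WT SH. It was -0.0043 in WT MI against WT SH and -0.0103 in KO MI against KO SH. With the library total in place of TMM, these medians were 0.07, 0.05, 0.13 and 0.14 in the same order. With scaling to the cardiomyocyte genes they were 0.14, 0.11, 0.26 and 0.28. Under that scaling 7 of the 9 genes were called higher in KO MI than in KO SH, all but *Tnnt2* and *Myom2*, where 43.8% of all tested genes were called higher. *Myl2* was the 1 gene called in WT MI against WT SH, at 0.31, where 34.3% of all tested genes were called. Relative to the median of all genes, *Myom1* in KO SH was 0.45 lower under TMM and 0.44 lower under scaling to the cardiomyocyte genes.

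**Figure D4:**
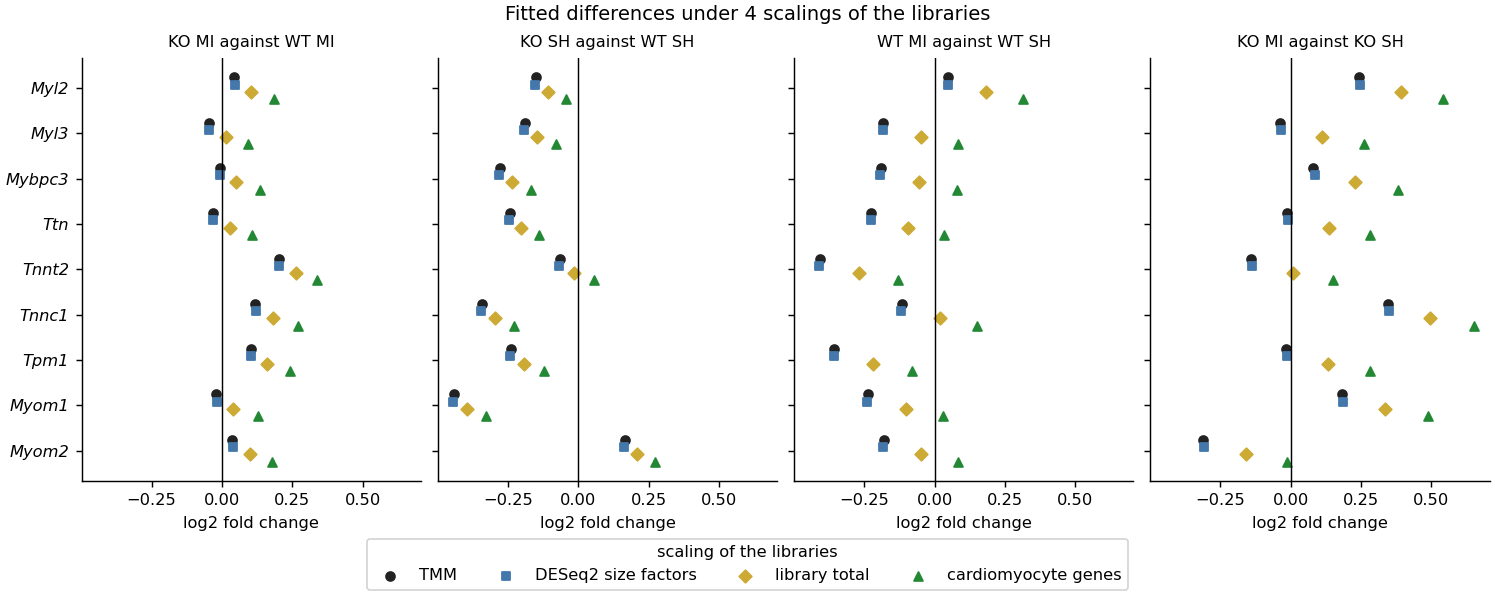
Fitted log2 fold changes of the 9 genes (x axis) in 4 comparisons under 4 scalings of the libraries: TMM, the size factors of DESeq2, the library total and the summed cardiomyocyte genes outside the sarcomere. The points of a gene shift to the right from TMM to cardiomyocyte scaling by a like amount for all 9 genes. The median of all tested genes in KO MI against KO SH was -0.01 under TMM and 0.28 under cardiomyocyte scaling.

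Of a list of 44 other sarcomere genes, 41 had enough counts for a test. In KO SH against WT SH, 2 were called higher and 9 lower, and 5 were DEGs. Of all tested genes, 5.11% were called higher and 7.22% lower, and 5.01% were DEGs. The thin filament held 7 of the 11, and 14 of the 41 genes with a test. The largest falls were those of skeletal actin *Acta1* (-1.67, adjusted p = 0.0467), beta-tropomyosin *Tpm2* (-0.77, adjusted p = 0.0833) and the muscle ubiquitin ligase *Trim54* (-0.77, adjusted p = 0.0158), all by edgeR with Benjamini-Hochberg adjustment. The 2 that rose were *Tnni1*, the slow skeletal troponin I that the fetal heart expresses (0.82, adjusted p = 0.00741), and *Trim55* (0.43, adjusted p = 0.00982, edgeR). *Acta1* was between 31.8 and 63.4 CPM in WT SH and between 7.06 and 16.5 CPM in KO SH, without overlap.

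In KO MI against WT MI, 2 of the 41 were called higher and 1 lower, where 1.03% and 2.04% of tested genes were. *Ankrd1*, a stress-responsive protein that binds titin, rose by 1.101 (adjusted p = 0.0314) and *Trim55* by 0.39 (adjusted p = 0.0408), while *Fhl2*, a LIM protein at the titin spring, fell by 0.42 (adjusted p = 0.00928), all by edgeR with Benjamini-Hochberg adjustment. *Ankrd1* was between 238 and 261 CPM in WT MI and between 363 and 1002 CPM in KO MI. In WT MI against WT SH, 1 was called higher, *Tpm2* (0.84, adjusted p = 0.0852, edgeR), and 4 lower. Of all tested genes, 3.11% were called higher and 2.21% lower. The largest falls were those of the alpha cardiac myosin heavy chain *Myh6* (-0.34, adjusted p = 0.0560) and of cardiac troponin I, *Tnni3* (-0.33, adjusted p = 0.0695), by the same edgeR test.

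In KO MI against KO SH, 13 of the 41 were called higher and 3 lower, and 11 were DEGs. Of all tested genes, 10.2% were called higher and 7.32% lower, and 7.42% were DEGs. *Acta1* (3.68, adjusted p = 0.000753), *Mybphl* (3.51, adjusted p = 0.0753) and the atrial light chain *Myl4* (2.51, adjusted p = 0.0459) had the largest rises by edgeR with Benjamini-Hochberg adjustment. *Mybphl* had a low mean level, 0.75 CPM over all libraries, and a wide 95% interval from 0.91 to 6.11. The 3 that fell were *Tcap*, the titin cap of the Z-disc (-0.45, adjusted p = 0.0422), *Fhl2* (-0.34, adjusted p = 0.0121) and the splicing regulator *Rbm24* (-0.19, adjusted p = 0.0451). *Acta1* was between 53.8 and 410.2 CPM in KO MI, in the libraries where the skeletal muscle sum also varied. The median log2 fold change of the 41 genes was 0.11, -0.17, -0.14 and 0.07 in KO MI against WT MI, KO SH against WT SH, WT MI against WT SH and KO MI against KO SH.

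Over the 16 libraries and 13940 genes, the genes whose log2 CPM was most like that of each of the 9 had Pearson correlations of 0.885 or more, which include the shared groups and scaling of the libraries. They were *Dst* and *Gm43605* for *Ttn*, *Tle5* and *Pacsin2* for *Mybpc3*, *Msrb3* and *Calu* for *Myl2*, *Kif1c* and *Mettl22* for *Myl3*, *Top1* and *Ptms* for *Tnnt2*, and *Mbd3* and *Gars1* for *Tnnc1*. For *Tpm1* they were *Sh3bgr* and *Gpihbp1*, for *Myom1* *Slc25a4* (0.946), which encodes the heart ADP/ATP carrier, and *Phb2*, and for *Myom2* *Rufy2* and *Dll1*. The search left out the 9 genes themselves and genes of low mean level, so how alike the 9 were to each other was not looked at. None of the genes found was among the 44 other sarcomere genes listed.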

How the data were processed

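The authors deposited RSEM expected counts per gene, not normalized and as whole numbers, for 16 libraries of rRNA-depleted, strand-specific total RNA. The study's methods name Skewer, STAR and RSEM on GRCm39, whereas the submitters' processing notes name cutadapt (version 3.4), HISAT2 (version 2.2.1) and RSEM (version 1.1.17), and the annotation release is not given in the sources used here. Names, positions and exons came from GENCODE M39, which matched 47772 of 51912 identifiers. Groups came from the labels, and the KO MI replicates are numbered 1, 2, 3 and 7. RSEM shares out reads that fit several genes, so levels of paralogs are less certain than their counts show.

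Genes whose counts summed to 10 or more in every group entered the fit, made with edgeR (version 4.0.16) in R (version 4.3.3): TMM normalization, a quasi-likelihood fit of all 16 libraries with 1 coefficient per group, two-sided F-tests and Benjamini-Hochberg adjustment over 20159 genes. A call was an adjusted p under 0.1, and a DEG also had a log2 fold change of 0.5 or more in size, after the study's thresholds. The study used DESeq2, which was run here (version 1.42.0) as an alternative. Levels are CPM of the TMM-scaled library. Ratios and single genes were compared by exact permutation tests (two-sided) on log2 values. The fit was tested on simulated data. Of the other sarcomere genes called in a comparison, at most the 3 largest rises and 3 largest falls are named. Of the genes searched outside the 9, the 2 most correlated with each of the 9 are named. A result that this rule would name is not reported here. The genes, lists and rules were chosen with earlier results of these data known, and no pattern here is independent support of those. Other alternatives were 3 scalings, no filter, 2 groups per fit, the replicate number as a block, and libraries left out.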

Additional observations from a re-analysis of the deposited data

Results flagged for a closer look

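Of 60 groups of 4 values looked at (levels and ratios of the 9 genes), 2 held a library far from the other 3, against about 3 that chance gives at 1 in 20. *Tnnt2* in WT MI replicate 3 was at 1585.5 CPM, above 3 libraries between 1433 and 1448.5 CPM. *Myom1* in KO MI replicate 2 was at 1174.9 CPM, above 3 libraries between 936 and 976 CPM. KO MI replicate 2 was also the library with the highest *Myl2* and *Tnnc1* of all 16 and the lowest sum of cardiomyocyte genes outside the sarcomere (9607 CPM). The part of the latter in the level of *Myom1* was not tested.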

How the results depend on the processing

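The count of called genes in KO MI against WT MI was 0 under every alternative run, DESeq2 included. Below, the number in brackets is the same count among all tested genes. No such number is given for an adjusted p under 0.05 or for fits with 1 library left out. Whether those counts moved with the calls of all genes was therefore not looked at. In KO SH against WT SH, where the count was 5 (2486), it was 1 with cardiomyocyte scaling (1622) and 1 without the libraries high in *Xist* (645). It was 0 with the minimum fold change of a DEG (1010), and 2 to 6 with 1 library left out. In WT MI against WT SH, where it was 2 (1071), it was 5 with DESeq2 (1526), 1 with the library total (2386) and 1 with cardiomyocyte scaling (6922). It was 0 without the libraries high in *Xist* (272) and 5 without KO MI replicates 2 and 7 (2213). It was 1 at an adjusted p under 0.05, 0 as DEGs (560), and 0 to 6 with 1 library left out. In KO MI against KO SH, where it was 3 (3536), it was 5 with the library total (5724) and 7 with cardiomyocyte scaling (9060). It was 0 without the libraries high in *Xist* (762), 0 as DEGs (1495), and 2 to 4 with 1 library left out. For the difference of the KO effects, where it was 0 (5), it was 3 with DESeq2 (571). It was 2, *Myom1* and *Tnnc1*, with the replicate block (1483), 1 without KO MI replicates 2 and 7 (785), and 0 to 3 with 1 library left out. The fits without the libraries high in *Xist* use 10 of 16 libraries, so fewer calls come with fewer samples as well, and other causes were not tested.

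With the replicate block, 4 genes were called in KO MI against KO SH and 3 in WT MI against WT SH (*Tnnt2*, -0.31 and -0.39, was gained in both), and 5 and 0 in the genotype comparisons. The labels do not say that the numbers pair libraries, and deviations of same-numbered libraries correlated between -0.0623 and 0.112. The best match of a library in another group had the same number in 9 of 42 cases. Among all tested genes the block moved the calls from 619 to 1108 in KO MI against WT MI and from 2486 to 3433 in KO SH against WT SH. It moved them from 1071 to 1656 in WT MI against WT SH and from 3536 to 5076 in KO MI against KO SH. For the difference of the KO effects it moved them from 5 to 1483. Over the other alternatives the calls among all tested genes ranged from 168 to 893, 645 to 4101 (2486 as reported, KO SH against WT SH), 272 to 6922 (WT MI against WT SH), 762 to 9060 (3536 as reported, KO MI against KO SH) and 2 to 785.

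Signs that turned were those of values that had not been called, except *Ttn* in WT MI against WT SH. With the library total, KO MI against WT MI gave *Ttn* 0.027, *Mybpc3* 0.052, *Myl3* 0.013 and *Myom1* 0.041, WT MI against WT SH gave *Tnnc1* 0.018, and KO MI against KO SH gave *Ttn* 0.14, *Myl3* 0.11, *Tnnt2* 0.00940 and *Tpm1* 0.13. With cardiomyocyte scaling, KO MI against WT MI gave *Ttn* 0.11, *Mybpc3* 0.14, *Myl3* 0.094 and *Myom1* 0.13. KO SH against WT SH gave *Tnnt2* 0.056. WT MI against WT SH gave *Ttn* 0.035, *Mybpc3* 0.079, *Myl3* 0.085, *Tnnc1* 0.15, *Myom1* 0.032 and *Myom2* 0.082. KO MI against KO SH gave *Ttn* 0.28, *Myl3* 0.26, *Tnnt2* 0.15 and *Tpm1* 0.28. In KO MI against WT MI, the replicate block gave *Mybpc3* 0.019 and *Myom2* -0.0478, and leaving out the libraries high in *Xist* gave *Myl2* -0.023 and *Myom2* -0.026. Without KO MI replicates 2 and 7, *Myom2* was -0.069 there and *Tpm1* was 0.0076 in KO MI against KO SH. Leaving out the libraries high in *Xist* gave *Mybpc3* -0.073 in KO MI against KO SH, and the log2 ratio of *Mybpc3* to *Ttn* was -0.12 in KO MI against WT MI and -0.04 in KO MI against KO SH. With 1 library left out, KO MI against WT MI ranged from -0.065 to 0.045 for *Mybpc3*, -0.00083 to 0.084 for *Myl2*, -0.10 to 0.014 for *Myom1* and -0.051 to 0.086 for *Myom2*. KO SH against WT SH ranged from -0.16 to 0.10 for *Tnnt2*, and KO MI against KO SH from -0.031 to 0.016 for *Ttn* and from -0.054 to 0.037 for *Tpm1*.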

Other observations

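Some sarcomere genes with paralog partners are described here after their values were seen. The beta myosin heavy chain *Myh7*, a fetal form in the mouse ventricle, was between 94.96 and 910 CPM in WT SH, 971 and 1249 in KO SH, 390 and 682 in WT MI, and 777 and 2957 in KO MI. It passed the threshold in 0 of the 5 edgeR tests (adjusted p from 0.185 to 0.960), and its spread in WT SH (SD of 348 CPM) was large beside its mean of 577 CPM. The slow skeletal troponin I gene *Tnni1* was between 66.1 and 88.1 CPM in WT SH and between 131.5 and 140 CPM in KO SH, without overlap.

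*Tpm4*, a tropomyosin found mostly outside muscle sarcomeres, was between 188 and 215 CPM in WT SH and between 134 and 149.6 CPM in KO SH. It fell in KO SH by 0.47 on the log2 scale (adjusted p = 0.00429, edgeR with Benjamini-Hochberg adjustment) and rose in KO MI against KO SH by 0.51 (adjusted p = 0.00221, same test).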
